A study of Mus musculus with 4 samples.

Results

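Expression of 9 genes that write, read or remove methyl marks on histone H3, or belong to the complexes that do, was followed across 4 arrays: the PRC2 genes Ezh1, Ezh2, Eed, Suz12 and Jarid2, the H3K27 demethylase gene Kdm6b, the trithorax-group genes Kmt2a and Men1, and Asxl1. They were chosen by name, as the probes of the deposited signal table that carry one of these symbols (Kmt2a is written Mll1 there). That gave 13 probes of 55681, for 9 of the 24278 genes with a symbol. Ezh1 had 4 probes, Men1 had 2 and each of the other 7 genes had 1. The RNA came from progenitors of adult mouse bone marrow, with 1 array for each of 4 groups. The LSK sort takes Lin- cells with much c-kit and with Sca-1, a mix of stem cells and of progenitors that are still multipotent. For the CLP sort the gate was Lin- cells with little c-kit, little Sca-1 and IL7Rα, meant to enrich common lymphoid progenitors. Each sort was made from WT littermates and from SFRP5-transgenic mice, in which a secreted Wnt antagonist is overexpressed, and the series asks which genes that expression affects. The promoter and sequence of the transgene, the age in weeks, the sex and the number of mice behind each sample are not stated in the sources used here.

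PRC2 (Polycomb repressive complex 2) places methyl groups on lysine 27 of histone H3, a mark of silenced genes. Its catalytic subunit is either EZH2, which dividing cells use most, or its paralog EZH1, which is found more in resting and mature cells. EED and SUZ12 are needed for the activity of either, and JARID2 helps bring the complex to its sites. KDM6B (JMJD3) removes the same mark and is induced by inflammatory and other signals. KMT2A (MLL1), with menin, the product of Men1, methylates lysine 4 of H3 at active promoters and maintains Hox gene expression in stem cells. ASXL1 is a partner of the deubiquitinase BAP1 and is often mutated in myeloid disease.

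The promoters of Ezh2, Suz12 and Ezh1 are shown because these genes differed in opposite directions between the sorts (below, Ezh2 and Suz12 had more signal in CLP and Ezh1 less). The sequences are the 250 bases upstream of the RefSeq start site in GRCm38.p6, 5′ to 3′ on the gene's strand, with 8 of the 9 members matched in the RefSeq table and Kdm6b not. Capitals mark words of 3 kinds on either strand: the E2F words TTTGGCGC, TTTCCCGC, TTTGCCGC and TTTCGCGC, the word CCAAT, and the cell cycle homology region words TTTGAA and TTCGAA. No word marked overlaps another.
Ezh2 (chr6:47595031-47595280, minus strand): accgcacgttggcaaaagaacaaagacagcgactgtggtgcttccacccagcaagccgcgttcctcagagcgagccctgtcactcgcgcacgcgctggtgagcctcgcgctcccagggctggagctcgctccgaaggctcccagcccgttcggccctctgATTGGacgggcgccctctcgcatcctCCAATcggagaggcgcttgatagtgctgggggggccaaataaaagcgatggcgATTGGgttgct
Suz12 (chr11:79992856-79993105, plus strand): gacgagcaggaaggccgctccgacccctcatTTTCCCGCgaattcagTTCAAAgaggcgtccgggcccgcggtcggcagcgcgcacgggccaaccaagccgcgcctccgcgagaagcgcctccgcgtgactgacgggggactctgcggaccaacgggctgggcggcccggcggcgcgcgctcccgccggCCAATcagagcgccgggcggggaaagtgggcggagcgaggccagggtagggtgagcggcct
Ezh1 (chr11:101226464-101226713, minus strand): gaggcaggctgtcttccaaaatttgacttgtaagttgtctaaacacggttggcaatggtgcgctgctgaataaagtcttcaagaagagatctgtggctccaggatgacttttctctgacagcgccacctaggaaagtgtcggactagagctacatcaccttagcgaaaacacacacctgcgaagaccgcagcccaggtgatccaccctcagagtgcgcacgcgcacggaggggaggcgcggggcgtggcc
Ezh2, 20 bases from the start site (chr6:47595011-47595030, minus strand): gcgTTTGGCGCtcggtccgg
Over windows of 300 bases that also take in 50 bases after the start site, Ezh2 held 1 E2F word, which begins 4 bases into the transcript, and Suz12 held 1, which begins at -219. No window of the other 6 matched members held one. Of all 32851 such RefSeq windows, 2.26% held an E2F word. CCAAT occurred 3 times in the Ezh2 window, once in that of Suz12 and not in that of Ezh1, and 37.4% of all windows held it. It also occurred in the Eed window and in each window of Jarid2 and Men1, but not in those of Kmt2a and Asxl1. TTTGAA or TTCGAA occurred once in the Suz12 window and in neither the Ezh2 nor the Ezh1 window, against 19.2% of all windows. Such a word also occurred in the windows of Eed and Asxl1, and in none of Jarid2, Kmt2a or Men1. These matches are descriptions of letters and not binding sites.

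Every signal below is a level, the log2 of a spot's intensity relative to the 75th percentile of its own array, and a difference is one level minus another of the same probe. Levels of different probes are not comparable. From 65.3% to 70.1% of probes were well above background on an array by the scanner software's flag, and no spot was saturated. All 9 members were above background on all 4 arrays by their brightest probe. With 1 array a group there is no replicate check and no test of any difference, so "higher" and "lower" describe these arrays. Replicate spots of 1 probe within an array had a median SD of about 0.064 above the 75th percentile, or 0.091 for a difference, which covers scanning and hybridisation on 1 array and neither mice, sorting nor amplification. Position on the slide and group coincide, so they cannot be told apart. In both genotypes Kit and Ly6a (the Sca-1 gene) were at least 2-fold lower in CLP and Il7r at least 2-fold higher, in the direction of the gates. Flt3, which common lymphoid progenitors are known to carry, was lower in CLP, with differences of -2.71 in WT and -2.78 in SFRP5. Where a gene had a further measured probe, it gave the direction of the brightest for 61.4% of genes between genotypes in LSK and 61.6% in CLP, and for 71.9% between sorts in WT and 66.6% in SFRP5. Genes of the sex chromosomes also separated the genotypes: Ddx3y, Eif2s3y, Kdm5d and Uty were lower on both SFRP5 arrays, with medians of -1.45 in LSK and -1.61 in CLP. Xist, which is transcribed from the inactive X chromosome, was not well above background on either WT array, whereas its level on the SFRP5 arrays was 4.99 (LSK) and 4.50 (CLP). Genotype and these markers of sex thus ran together on the 4 arrays and cannot be told apart. In bulk RNA, fewer cells of a type and less RNA per cell cannot be told apart.

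**Figure D1:**
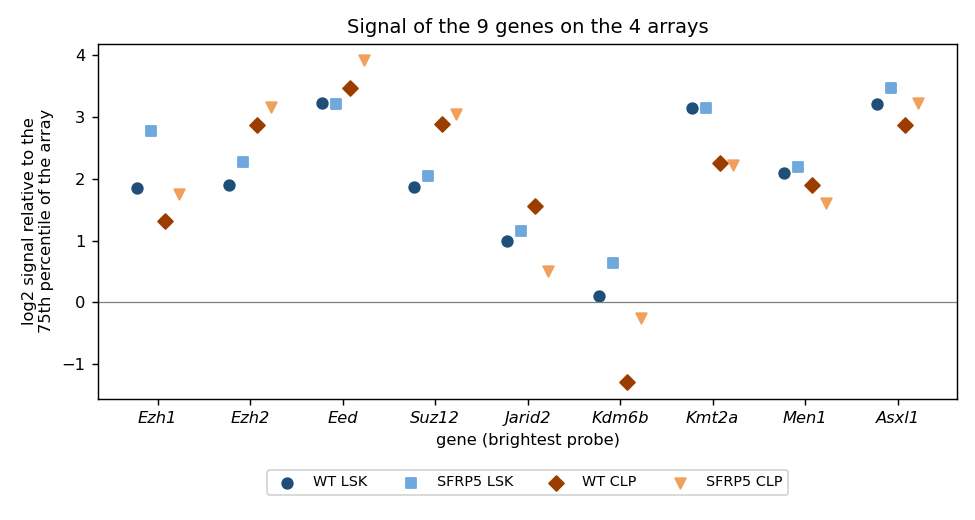
Level of each of the 9 genes (brightest probe, log2 signal relative to the 75th percentile of the array) on the 4 arrays, 1 point per array. Ezh2 and Suz12 sit higher on both CLP arrays than on both LSK arrays, and Ezh1, Kdm6b, Kmt2a, Asxl1 and, by this probe alone in WT, Men1 sit lower on the CLP array within each genotype.

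The comparison of CLP with LSK asks how the genes differ between the sorts. CLP names a gate here and not a pure lymphoid population. Most erythroid and granulocyte-monocyte markers also had more signal on the CLP arrays (below). The PRC2 genes divided. Ezh2 and Suz12 had more signal in CLP in both genotypes, whereas Ezh1 had less, and the demethylase gene Kdm6b and the trithorax gene Kmt2a also had less. At 2-fold, 2 of the 9 members were called in WT (22.2%), against 32.1% of the 16016 genes measured on both arrays, and 2 of 9 (22.2%) in SFRP5, against 22.5% of 15713. These shares are at or below those of all genes. Of genes at or above the 75th percentile on both arrays, 28.3% were called in WT and 13.8% in SFRP5. The members' share in SFRP5 is above that of these brighter genes, but it rests on 2 calls near the threshold, Suz12 (1.01) and Ezh1 (-1.02). The Suz12 call was lost with normexp, quantile normalization, cyclic loess and the authors' scaling. The Ezh1 call was lost with the mean of its measured probes. The brighter class does not hold Kdm6b, whose levels lay below the 75th percentile on both CLP arrays. In WT the calls were Suz12 higher and Kdm6b lower, where 17.8% of genes were called higher and 14.3% lower. In SFRP5 they were Suz12 higher and Ezh1 lower, where 11.5% were called higher and 11% lower. At 1.5-fold 4 members were called in WT, against 56.1% of genes and 55.1% of the brighter ones. In SFRP5 7 were called, against 41.7% of genes and 35.1% of the brighter ones.

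Ezh2, the catalytic subunit of dividing cells, stood at 1.91 (WT) and 2.27 (SFRP5) in the LSK sort and at 2.88 (WT) and 3.16 (SFRP5) in the CLP sort. Both CLP values lay above both LSK values. The difference was 0.97 in WT (1.96-fold) and 0.89 in SFRP5 (1.85-fold), just under 2-fold. Over the processing settings it ran from 0.56 to 0.97 in WT and from 0.67 to 0.89 in SFRP5. In WT 29.7% of genes at or above the 75th percentile on both arrays were at least as far from 0, and in SFRP5 18.2% were, so a difference of this size was common between the sorts.

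Suz12, the core subunit that stabilises the complex, stood at 1.88 (WT) and 2.04 (SFRP5) in the LSK sort and at 2.90 (WT) and 3.05 (SFRP5) in the CLP sort. Its sort difference was 1.02 in WT (2.03-fold) and 1.01 in SFRP5 (2.01-fold), so the groups separated by sort and hardly by genotype. The difference stayed above 0 in every setting but was under 2-fold with normexp (0.95 in WT and 0.93 in SFRP5), quantile normalization (0.62 and 0.82), cyclic loess (0.64 and 0.83) and the authors' scaling (0.61 and 0.82).

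Eed, the subunit that binds the methyl mark, stood at 3.23 (WT) and 3.21 (SFRP5) in the LSK sort and at 3.47 (WT) and 3.92 (SFRP5) in the CLP sort. SFRP5 CLP was the high array, and both LSK arrays were nearly equal. The sort difference was 0.71 in SFRP5 and 0.24 in WT, where it turned to -0.27 with quantile normalization, -0.22 with cyclic loess and -0.17 with the authors' scaling. Jarid2, the recruiting subunit, had sort differences of opposite sign in the genotypes. It stood at 1.003 (WT) and 1.16 (SFRP5) in the LSK sort and at 1.56 (WT) and 0.51 (SFRP5) in the CLP sort, which gives 0.56 in WT and -0.64 in SFRP5.

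Ezh1, the alternative catalytic subunit, had less signal in CLP on every probe. Its brightest probe (A_55_P2082869) stood at 1.85 (WT) and 2.78 (SFRP5) in the LSK sort and at 1.32 (WT) and 1.76 (SFRP5) in the CLP sort. SFRP5 LSK was the high array, WT CLP the low one, and WT LSK and SFRP5 CLP lay close together. The difference between sorts was -0.53 in WT and -1.02 in SFRP5. The probe A_55_P2155942 gave -0.74 and -0.41, and the dim probe A_55_P2017086 gave -0.80 and -0.94. The fourth probe (A_55_P2017090), annotated to another Ezh1 transcript, was above background on the LSK arrays, at -2.36 in WT and -1.58 in SFRP5, and on neither CLP array. Against the lowest signal above background, or the probe's own where that is higher, it was at least 5.42-fold higher in WT LSK than in WT CLP and at least 11.9-fold higher in SFRP5 LSK than in SFRP5 CLP. Ezh1 was thus lower in CLP by 4 of 4 probes in each genotype, while its 2-fold call in SFRP5 rests on the brightest probe, with -0.79 for the mean of the measured probes.

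**Figure D2:**
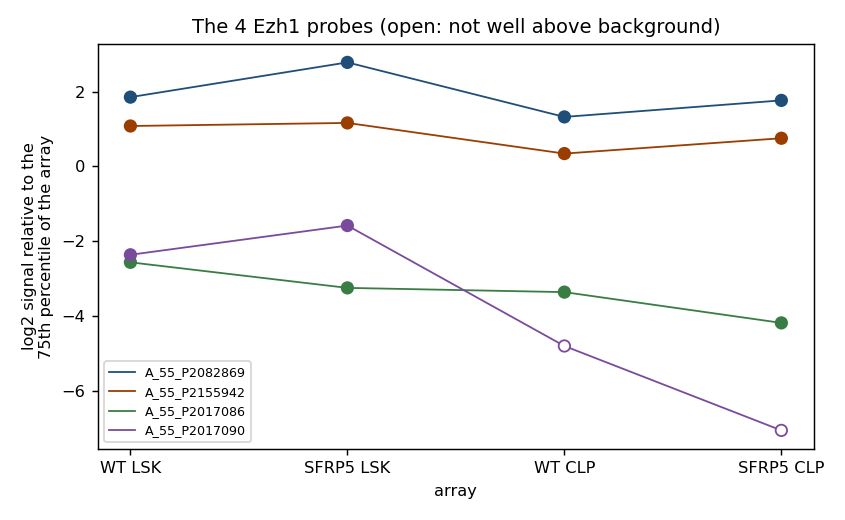
Level of each of the 4 Ezh1 probes (log2 signal relative to the 75th percentile of the array) on the 4 arrays; a line joins the values of 1 probe and open points are not well above background. Within each genotype every probe sits lower in CLP than in LSK, while between genotypes the probes go different ways in LSK.

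Kdm6b, the H3K27 demethylase, had the widest range of the members, 1.93 between its lowest and highest array. Over the 15179 genes above background on all 4 arrays the median range was 1.001 and the 95th percentile 2.75. The median range of the members was 1.05. Kdm6b stood at 0.10 (WT) and 0.64 (SFRP5) in the LSK sort and at -1.29 (WT) and -0.25 (SFRP5) in the CLP sort. Both LSK arrays were above both CLP arrays, and within each sort SFRP5 was above WT. The sort difference was -1.40 in WT (2.64-fold lower) and -0.88 in SFRP5 (1.84-fold lower). It stayed below 0 in every setting, from -1.81 to -1.11 in WT and from -1.07 to -0.77 in SFRP5.

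Kmt2a, the H3K4 methyltransferase, stood at 3.14 (WT) and 3.15 (SFRP5) in the LSK sort and at 2.26 (WT) and 2.22 (SFRP5) in the CLP sort. The arrays of a sort differed by at most 0.04 and the sorts by -0.88 in WT and -0.93 in SFRP5. That difference passed 2-fold in WT with quantile normalization (-1.31), cyclic loess (-1.29) and the authors' scaling (-1.30), and in SFRP5 with these (-1.13, -1.11 and -1.11) and with normexp, where it was -1.002. Men1, the menin gene, stood at 2.10 (WT) and 2.19 (SFRP5) in the LSK sort and at 1.90 (WT) and 1.61 (SFRP5) in the CLP sort by its brightest probe (A_55_P2143159). Its difference was -0.20 in WT and -0.58 in SFRP5. The dimmer Men1 probe (A_66_P137048) gave 0.50 in WT and -0.38 in SFRP5, so the direction in WT depends on the probe. Asxl1 stood at 3.22 (WT) and 3.48 (SFRP5) in the LSK sort and at 2.87 (WT) and 3.22 (SFRP5) in the CLP sort. Asxl1 was lower in CLP, with differences of -0.34 in WT and -0.25 in SFRP5. These were the smallest over the processing settings, and quantile normalization gave -0.84 and -0.52.

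Over the members the median sort difference was -0.20 in WT, with 4 of 9 above 0, and -0.58 in SFRP5, with 3 of 9 above 0. The median over all genes measured was 0.02 in both genotypes, and over genes at or above the 75th percentile on both arrays it was 0.30 in WT and 0.11 in SFRP5. The WT median of the members turned to 0.15 when a gene's probes were averaged and to 0.24 with the second brightest probe, through Men1. The authors' scaling moved the median of all genes by more than any other, to -0.40 in WT and -0.16 in SFRP5, and lowered every sort difference along with it.

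**Figure D3:**
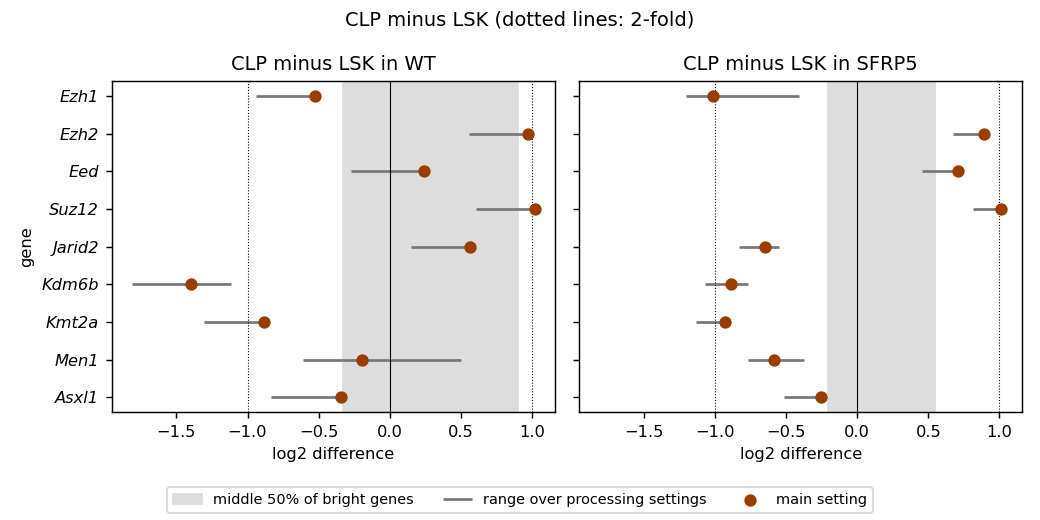
CLP minus LSK (log2) for the 9 genes in WT and in SFRP5; points are the main setting, bars span the processing settings, grey is the middle 50% of genes at or above the 75th percentile on both arrays. Ezh2 and Suz12 lie above 0, and Ezh1, Kdm6b, Kmt2a and Asxl1 below it, over the whole bar in both genotypes, while Eed and Men1 cross 0 in WT and Jarid2 changes side between genotypes.

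Markers of division and of other lineages differed with the sort as well. Of 10 mitosis genes 10 were at least 2-fold higher in CLP in WT (median 1.70) and 7 in SFRP5 (1.20), and of the replication genes 10 of 13 (1.46) and 8 of 14 (1.08). A summed level is the log2 of the sum of the unlogged relative signals of a list's genes, dim ones included. It follows mainly the brightest probes of the list. For the mitosis genes it was at 6.36 (WT) and 6.69 (SFRP5) in the LSK sort and at 8.01 (WT) and 7.91 (SFRP5) in the CLP sort. Erythroid markers were at least 2-fold higher in CLP for 8 of 9 genes in each genotype, with summed levels of 5.73 and 5.56 in LSK and 9.38 and 8.64 in CLP, in the order WT and SFRP5. Granulocyte-monocyte markers were so for 8 of 9 genes in WT and 6 of 9 in SFRP5 (5.87 and 6.43 in LSK, 8.26 and 8.38 in CLP). The B lineage markers were so for 7 of 8 genes in each genotype (6.20 and 6.90 in LSK, 7.56 and 8.01 in CLP). Mast cell and basophil markers were above background in both sorts for 3 of 6 genes, all of which were higher in CLP. Stem cell markers were at least 2-fold lower in CLP for 3 of 4 genes in WT (median -2.45) and 3 of 5 in SFRP5 (-2.77), with summed levels of 5.38 and 5.31 in LSK and 0.19 and 1.46 in CLP. Of the NF-kB response genes 5 of 8 were at least 2-fold lower in CLP in each genotype, and 0 in WT and 1 in SFRP5 higher (medians -1.44 and -1.54), with summed levels of 3.56 and 4.49 in LSK and 2.30 and 3.32 in CLP. Of 20 immediate early genes 7 in WT and 8 in SFRP5 were at least 2-fold lower and 1 in each higher (medians -0.56 and -0.82). The part of these cell types, of division and of these responses in the differences of Ezh2, Suz12, Ezh1, Kdm6b and Kmt2a was not tested.

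The comparison of SFRP5 with WT asks which members differ with the transgene. In LSK no member reached 2-fold (0 of 9), against 13.7% of the 16125 genes measured on both arrays and 4.4% of those at or above the 75th percentile on both. In CLP 2 of 9 members did (22.2%), Kdm6b higher and Jarid2 lower, against 8.56% of 15942 genes and 1.93% of the brighter ones, a class that does not hold Kdm6b, whose levels lay below the 75th percentile on both CLP arrays. By direction, 4.25% of genes were called higher and 4.3% lower. At 1.5-fold 1 member was called in LSK, against 34.9% of genes, and 2 in CLP, against 24%. The genes chosen for this description were picked with earlier results of these arrays known, so the 2 calls are not independent evidence about the group.

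In CLP Kdm6b was higher in SFRP5 by 1.05 (2.07-fold), at -0.25 against -1.29. Of the 3020 genes whose levels lay between -2 and 0 on both CLP arrays, as those of Kdm6b did, 2.35% were at least 2-fold higher. That class leaves out genes whose difference carries them past either limit, so its share of calls is lowered by construction. Of all genes measured 4.25% were called higher. In LSK it was higher by 0.53 (1.45-fold). The direction held in every setting, from 0.40 to 0.58 in LSK and from 0.76 to 1.15 in CLP. The 2-fold call in CLP was lost with normexp (0.76) and with quantile normalization (0.99). Kdm6b has a single probe here, so no further probe bears on it.

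Immediate early genes, the rapid transcriptional response to a stimulus, were also higher in SFRP5 in both sorts, under each scaling. Of 20 genes 11 reached 2-fold upwards in SFRP5 LSK and 0 downwards (median 1.08), and 10 were higher and 1 lower in SFRP5 CLP (0.99). Their summed level was at 7.25 (WT) and 8.60 (SFRP5) in the LSK sort and at 6.83 (WT) and 8.03 (SFRP5) in the CLP sort. Of the NF-kB response genes 4 of 9 reached 2-fold upwards in SFRP5 LSK and 1 downwards (median 0.54), and 3 of 8 were higher and 2 lower in SFRP5 CLP (0.81). The part of such a response in the Kdm6b difference was not tested. Granulocyte-monocyte markers were at least 2-fold higher in SFRP5 LSK for 6 of 9 genes (median 1.22), and in CLP B lineage markers were above 0 for 9 of 9 (0.55) and erythroid markers for 0 of 10 (-0.62). Their part in the members' genotype differences was not tested either.

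Jarid2 was lower in SFRP5 CLP than in WT CLP by 1.05 on the log2 scale (2.07-fold), at 0.51 against 1.56, and differed little in LSK, by 0.16. Of genes at or above the 75th percentile on both CLP arrays, 1.05% were at least 2-fold lower. That class leaves out genes whose fall carries them below the percentile, so its share of lower calls is reduced by construction. Of all genes measured 4.3% were called lower. The CLP difference was -0.84 with normexp, -0.95 with the authors' scaling and just under 2-fold with quantile normalization, so its direction held and its call did not. Jarid2 also has a single probe.

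Ezh1 was higher in SFRP5 LSK by 0.93 (1.90-fold) on its brightest probe, the largest genotype difference in LSK among the members' brightest probes. Of its further probes A_55_P2155942 gave 0.08, A_55_P2017086 gave -0.68 and A_55_P2017090 gave 0.78. In CLP the first of these gave 0.41 and the second -0.82, beside 0.44 on the brightest. The direction of the Ezh1 genotype difference therefore depends on the probe in both sorts, unlike its sort difference. The mean of the measured probes was 0.28 in LSK and 0.01 in CLP.

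Ezh2 was higher in SFRP5 by 0.36 in LSK and 0.28 in CLP, and Suz12 by 0.16 and 0.15, with both above 0 in every setting. Of the brighter genes, 47.3% in LSK and 44.8% in CLP were at least as far from 0 as Ezh2. Eed gave -0.02 in LSK and 0.45 in CLP. Of the mitosis genes 0 of 10 reached 2-fold in either sort, with medians of 0.57 in LSK and -0.01 in CLP. Above 0 were 10 of them in LSK and 5 in CLP. Replication genes were above 0 for 10 of 13 in LSK (median 0.25) and 0 of 14 in CLP (-0.21). With quantile normalization these counts were 7 and 4. At 2-fold 0 replication genes were higher and 2 lower in LSK. The part of division in the genotype differences of Ezh2 and Suz12 was not tested.

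Kmt2a was the member with the least genotype difference, 0.00 in LSK and -0.04 in CLP, and its sign changed with the setting in both. Men1 gave 0.10 in LSK and -0.29 in CLP on its brightest probe and 0.94 and 0.07 on the dimmer one, and the LSK value turned below 0 (to -0.04 at the lowest) with quantile normalization, cyclic loess and the authors' scaling. Asxl1 was higher in SFRP5 by 0.26 in LSK and 0.35 in CLP, and above 0 in every setting. Over the members the median was 0.16 in LSK, with 8 of 9 above 0, and 0.28 in CLP, with 6 of 9 above 0. The LSK count depends on the scaling. Kmt2a and Men1 joined Eed below 0 with quantile normalization, cyclic loess and the authors' scaling. Of all genes measured 51.3% were above 0 in LSK and 46.6% in CLP, and of the brighter genes 63.4% and 45.9%. The median of genes at or above the 75th percentile on both arrays was 0.17 in LSK, the same as that of the members to within 0.01, and -0.04 in CLP.

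**Figure D4:**
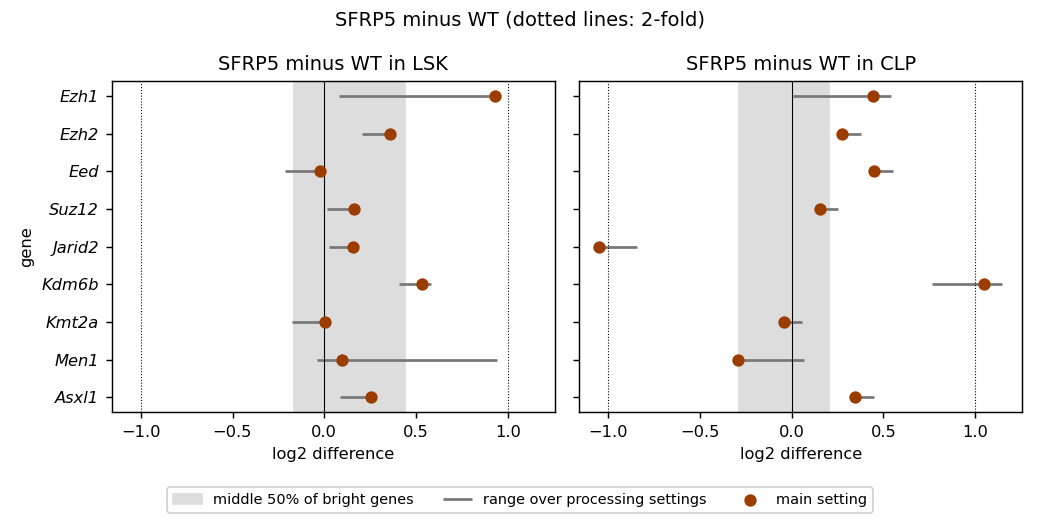
SFRP5 minus WT (log2) for the 9 genes in LSK and in CLP; points are the main setting, bars span the processing settings, grey is the middle 50% of genes at or above the 75th percentile on both arrays. In CLP Kdm6b (1.05) and Jarid2 (-1.05) lie farthest from 0, and in LSK the bars of Ezh1 and Men1 are long because their probes disagree.

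The genotype difference in CLP minus that in LSK was at least 2-fold for 1 of 9 members, against 22.6% of the 15179 genes above background on all 4 arrays. That member was Jarid2, at -1.20, with -0.98 under the authors' scaling. Kdm6b had 0.52, Ezh1 -0.49, Eed 0.47 and Men1 -0.39. Asxl1 (0.09), Ezh2 (-0.08), Kmt2a (-0.046) and Suz12 (-0.01) were within 0.1 of 0. For Ezh2, Suz12 and Kmt2a the sort difference was thus nearly the same on the WT and the SFRP5 pair of arrays.

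Further genes of the same complexes were taken from lists. Of the 6 other PRC2 subunits, 2 were at least 2-fold higher in CLP in WT and 1 lower, and 0 higher and 2 lower in SFRP5. Of all genes measured, 17.8% were called higher and 14.3% lower in WT, and 11.5% and 11% in SFRP5. With normexp 0 of these subunits were higher and 1 lower in each genotype. Rbbp4, a histone-binding subunit shared with other complexes, was at 1.04 in WT, or 0.46 with quantile normalization, and at 0.73 in SFRP5. Its further probe gave 1.28 in WT but -0.25 in SFRP5, so the direction in SFRP5 depends on the probe. Phf1, a Polycomb-like accessory subunit, was lower, at -2.50 and -1.93, though its further probe gave -0.12 and -0.59. Phf19, another Polycomb-like subunit, was at 1.06 in WT and -1.10 in SFRP5, and between genotypes at 1.36 in LSK and -0.80 in CLP. With normexp no Phf19 difference reached 2-fold (0.54, -0.71 and 0.62 for those that did).

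Of the 6 other H3K4 methyltransferase genes measured, 0 were at least 2-fold higher in CLP and 1 lower in WT, Ash1l at -1.16, and 0 in either direction in SFRP5. Kmt2c (-0.41 and -0.53) and Kmt2d (-0.20 and -0.31), the relatives of Kmt2a that act at enhancers, were lower by less than Kmt2a, whereas Kmt2b was at 0.40 in WT, or -0.02 with the authors' scaling, and 0.37 in SFRP5. Of 12 shared and adaptor subunits of the complexes these enzymes form, some of which belong to only some of the complexes, 10 were above 0 in WT (median 0.46) and 11 in SFRP5 (0.36), against 50.6% and 51.5% of all genes, and 1 in each was at least 2-fold higher. Of genes at or above the 75th percentile on both arrays, 62.3% were above 0 in WT (median 0.30) and 57.6% in SFRP5 (0.11). The count of subunits above 0 depends on the scaling in WT. There 6 of 12 were above 0 with the authors' scaling (median 0.04) and 7 with quantile normalization (0.09). Dpy30, a core subunit, was at 1.84 in WT and 0.83 in SFRP5, and Paxip1 was at -1.21, or -0.82 with normexp, and -0.74. Of 7 measured genes of the BAP1 complex other than Asxl1, 1 was at least 2-fold lower in each genotype, Ogt at -1.25 in WT and Mbd6 at -1.17 in SFRP5, while Bap1 was at 0.61 and 0.49. In LSK none of the other H3K4 methyltransferase genes reached 2-fold between genotypes, and of the shared and adaptor subunits Hcfc2 alone did, at -1.64, or -0.72 with normexp.

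The other H3K27 demethylase genes are the sex-linked pair Kdm6a, on the X chromosome, and Uty, on the Y. Kdm6a was dim, at -3.21 (WT) and -2.18 (SFRP5) in the LSK sort and at -4.31 (WT) and -2.85 (SFRP5) in the CLP sort, and higher in SFRP5 by 1.04 in LSK and 1.47 in CLP. Uty was lower in SFRP5, with differences of -1.54 in LSK and -2.26 in CLP, and its further probe was above background on the WT arrays alone. The directions were opposite and held under each scaling, but with normexp both were under 2-fold in both sorts (Kdm6a 0.52 and 0.28, Uty -0.34 and -0.94), and with the authors' scaling Kdm6a was at 0.91 in LSK. At these levels replicate spots had median SDs from 0.11 to 0.50. The genotype difference of Kdm6b was measured between arrays that also differed in these genes.

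Some genes that MLL1 and menin are known to maintain were lower in CLP, as Kmt2a was, and others were not. Meis1 and Mecom of this list are also stem cell markers. The stem cell list had median sort differences of -2.45 in WT and -2.77 in SFRP5. The part of the cell mix in the differences of these targets was not tested. In WT 4 of 7 measured targets were at least 2-fold lower and 1 higher (median -1.05), against 14.3% and 17.8% of all genes. With normexp 2 of the 7 were lower and 1 higher (median -0.30). In SFRP5 3 of 8 were lower and 2 higher (-0.44), against 11% and 11.5%. Meis1, a homeobox partner of Hox proteins, was at -3.51 in WT and -3.41 in SFRP5, and Hoxa9 at -2.82 and -2.41. Hoxa10 was above background on both LSK arrays and on neither CLP array. Cdkn2c, a cell cycle inhibitor, was at 2.24 and 1.38. Between genotypes 1 of 9 targets reached 2-fold in LSK, Mecom at -1.82, or -0.45 with normexp, and 0 of 7 in CLP. Among 6 genes that PRC2 is known to repress in blood progenitors, Hmga2 was lower in CLP by 3.28 in WT and 2.64 in SFRP5 on the log2 scale, Cdkn2b was above background on no array and Lin28b on 1. No measured gene of that list reached 2-fold between genotypes.

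**Figure D5:**
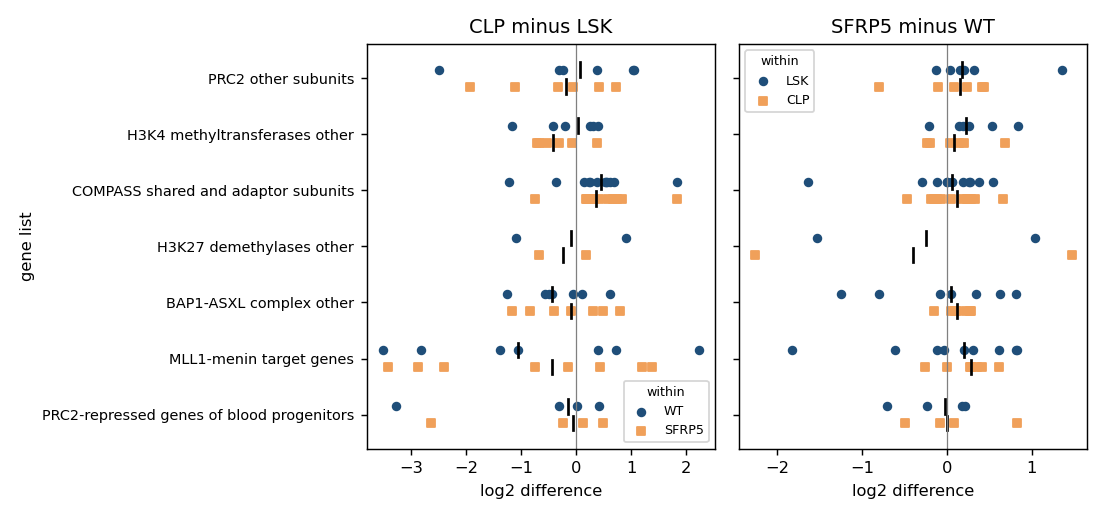
Difference of each measured gene of 7 lists (log2), CLP minus LSK in WT and SFRP5 on the left and SFRP5 minus WT in LSK and CLP on the right; points are genes and black bars list medians. In this scaling 10 and 11 of the 12 shared and adaptor COMPASS subunits lie above 0 between sorts (6 in WT with the authors' scaling), the MLL1-menin targets spread widest between sorts, and Kdm6a and Uty lie on opposite sides of 0 between genotypes.

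For Kdm6b and Ezh1, the 2 members with the widest range over the 4 arrays, the genes with the most similar pattern were found by the root mean square distance between mean-centred levels over 4 arrays. Nearest to Kdm6b were H6pd (0.039), Rasa1 (0.045) and Mirt1 (0.052). Nearest to Ezh1 were Tnfrsf12a (0.023), Trim37 (0.039) and Fem1c (0.061). The range and pattern of Ezh1 are those of its brightest probe, which gave 0.93 between genotypes in LSK. Its further probes gave 0.08, -0.68 and 0.78 there, so the likeness holds for the brightest probe alone. Of the 13187 named genes compared, 93 lay within 0.2 of Kdm6b and 183 within 0.2 of Ezh1, so patterns over 4 arrays are shared by many genes.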

How the data were processed

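Per the file headers, 1-colour Agilent arrays were read with Agilent Feature Extraction 10.10.1.1 on mm9 annotation, and the authors' deposited scanner files hold the software's processed intensity of each spot. Per the labels' protocols, Cy3 cDNA was made from amplified RNA of freshly sorted cells. The authors' deposited signal table multiplies that intensity by 1 factor per array, by a rule not given in the sources used here. It was used for gene symbols and as an alternative.

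For 59305 spots per array that are not controls, log2 intensity was taken relative to the array's own 75th percentile. Flagged outlier spots (128 to 160 per array) were left out and spots of a probe averaged. Symbols were updated by Entrez ID through the RefSeq table (GRCm38.p6), used for names alone. The brightest probe stood for a gene. A difference counted only where both arrays were well above background, and was called at 2-fold. An additive fit of both factors, which leaves 1 residual degree of freedom and assumes no interaction, was not run, so no p-value is given. The alternatives were normexp with an offset of 50 on the median spot and background signals (the mean signal planned is not used here), quantile and cyclic loess normalization (limma 3.58.1), the authors' scaling, other filters and other probes of a gene. The code that computes and calls differences was checked on simulated data. Members and gene lists were chosen with earlier results of these data known. Named genes were all members with every probe, at most the 2 highest and 2 lowest of each pathway list per comparison, and the 3 most similar genes of the 2 members with the widest range; Kmt2c, Kmt2d, Hoxa10, Cdkn2b, Lin28b and the marker genes were named after their values were seen.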

Additional observations from a re-analysis of the deposited data

Results flagged for a closer look

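Among the members, 4 had genotype differences of opposite sign in the 2 sorts, each from 1 array per group, and none of these differences between sorts was tested. The share of all genes with such a change of sign was not counted, so the count says nothing particular about the members. For Jarid2 the genotype difference was 0.16 in LSK and -1.05 in CLP, which are -1.20 apart, and the same 4 values give its sort difference opposite signs in WT (0.56) and SFRP5 (-0.64), also -1.20 apart. For Eed it was -0.02 in LSK and 0.45 in CLP, 0.47 apart. The LSK value is smaller than the replicate-spot SD of a difference (0.091), so its sign carries little weight. For Men1 it was 0.10 and -0.29, -0.39 apart, and the sign in each sort depends on the setting or probe. For Kmt2a it was 0.00 and -0.04, -0.046 apart, and the sign in each sort depends on the setting.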

How the results depend on the processing

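Of 10 alternatives, 9 give a difference for each member, and over 405 such values for single members none of the 2-fold calls changed sign. In 25 the sign differed from the main setting, for 10 of 45 member differences, and in 24 a 2-fold call was gained or lost, for 9 of 45. With normexp, 0 members were called between genotypes in CLP and 1 between sorts in WT. With quantile normalization 0 were called between genotypes in CLP, and the sort medians were -0.53 (WT) and -0.71 (SFRP5). With cyclic loess these medians were -0.52 and -0.75. With the authors' scaling the medians were 0.035 between genotypes in LSK, 0.38 in CLP, -0.61 between sorts in WT and -0.77 in SFRP5, with 1 member called between genotypes in CLP and 0 for the difference between the genotype differences. With a gene's probes averaged the medians were 0.26, 0.15, 0.15 and -0.48 in the same order, and 1 member was called between sorts in SFRP5. With the second brightest probe the median sort differences were 0.24 and -0.38, and 1 member was called in SFRP5. At 1.5-fold 1 member was called between genotypes in LSK, 4 between sorts in WT and 7 in SFRP5, against 34.9%, 56.1% and 41.7% of all genes. Keeping outlier spots and both other filters on dim probes changed no member, since no member spot was flagged and all brightest probes were above background. The share of higher genes among all those at 2-fold between genotypes in LSK was 47.8%, and from 33.4% (authors' scaling) to 63.4% (cyclic loess) over the scalings. In CLP it was 49.7%, and 60.1% with the authors' scaling. Between sorts it was 55.5% in WT, with 26.6% under the authors' scaling and 66.1% with normexp, and 51.1% in SFRP5, with 37.6% under the authors' scaling. No paired analysis was possible because the labels give no replicate numbers and each group has 1 array. Blocking the sorts by genotype is the additive fit that was not run, and leaving out an array would empty a group. The number of arrays limits every difference, and dim probes are less precise, with median spot SDs from 0.40 to 0.50 at the lowest signals. Causes of the moves were not tested.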
